A study of Mus musculus with 2 samples.

Results

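The genes described are the mouse translation factors, which carry an mRNA through initiation, elongation and release on the ribosome. They were chosen by name from the table of gene values, as every Eif1 to Eif6, Eef1 and Eef2 gene together with the release factor genes Etf1, Gspt1 and Gspt2. The sex-linked pair that encodes the gamma subunit of eIF2 was left out. The rule gave 64 of 21041 genes. RNA-seq had been run on DP thymocytes, the CD4+ CD8+ stage of T-cell development in the thymus, with 1 library of WT cells and 1 library of Cxxc1-deficient cells. In the study's methods, WT mice carry the floxed alleles (Cxxc1 fl/fl) and Cxxc1-deficient mice carry them with hCD2-Cre, so both genotypes share the floxed locus. The human CD2 promoter drives Cre in early thymocytes and in other immune cells, and the floxed allele was made in strain 129 and backcrossed to C57BL/6. The genotype label of the deficient sample reads Cxxc1+/- and differs from that account. The methods give mice a few weeks old as the default, and the number of mice behind each library is not given in the sources used here. Cxxc1 encodes a subunit of the SETD1 histone methyltransferase complex that binds unmethylated CpG through its CXXC domain.

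Initiation in eukaryotes starts when eIF2, with GTP and the initiator tRNA, joins eIF1, eIF1A, eIF5 and the large eIF3 complex on the small ribosomal subunit. The eIF4 group binds the cap, unwinds the leader and brings the mRNA to that subunit, and eIF4E-binding proteins and eIF2alpha kinases restrain these steps. eEF1 and eEF2 then carry elongation, and eRF1 with eRF3 ends it, and T-cell precursors rely on these factors when they grow and divide.

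The value of a gene is per length of its mRNA, in units set separately in each library, so levels were compared between genes. One read on 1 kb of mRNA was worth 4.06 in the WT library and 4.70 in the Cxxc1-deficient one, as worked out from the steps between the deposited values. On that estimate the genes of the table held approximately 1364508 reads in the WT library and 720647 in the other, and the 64 translation factor genes held 10039 (0.736%, 95% Wilson interval 0.722 to 0.750) and 4349 (0.604%, 0.586 to 0.622). Intervals given with ratios are 95% Clopper-Pearson intervals of these approximate reads, and all intervals cover counting error only. They compare 2 libraries, and with 1 library per genotype there was no replicate check and no test. Cxxc1 itself read 91 in WT and 50 in Cxxc1-deficient cells, over the whole gene, of which only some exons are floxed. The value of 50 is below 57, which 95% of the olfactory receptor genes described below did not pass in that library. By qPCR and western blot, the paper reports nearly no Cxxc1 mRNA in deficient DP cells and loss of the protein. All 11 DP thymocyte markers lay between 79 and 20778 in WT cells and between 44 and 5058 without Cxxc1, and 9 of them fell at least 2-fold and the other 2 were lower. A fall of that size was seen in 17.4% of all genes. It was seen in 56.8% of genes averaging 100 or more over both libraries, as 10 of the markers do. The markers of B cells, erythroid cells, macrophages and dendritic cells, thymic epithelium and NK cells read 0 to 74 and 0 to 43, with the alpha globin genes at 0 in both. Olfactory receptor genes, which thymocytes do not use, had medians of 22 and 24 over 1122 genes. In a bulk sample, fewer cells of a type and less RNA per cell cannot be told apart.

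Several translation factor mRNAs have near-identical copies elsewhere in the genome, and the authors kept reads that mapped to 1 place. Reads of 50 bases were sequenced, so every 50-base window of each mRNA was looked up in the NCBIM37 genome, the build of mm9. Windows that cross exon junctions are mostly not found there and were left out of the shares. Of the windows found, those at several places made up 77.0% for Eif3j1, 76.5% for Eif3j2, 74.0% for Eef1a1, 65.0% for Eif4a1, 62.9% for Eef1g and 56.9% for Eif1. The share reached 20% in 15 of 64 translation factor genes (23.4%) against 8.71% of the 18838 genes that could be looked up, while 26 translation factor genes had no such window. One coding window is shown for each of 4 genes, the most repeated one that lies within a single exon, because repeats of this kind leave few places for a read to map once. Eif3j1 and Eif3j2, with higher shares but only 1 or 2 reads, are not shown. No letters are in capitals, since the whole window is repeated.
Eef1a1: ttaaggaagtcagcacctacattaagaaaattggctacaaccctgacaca
Eif4a1: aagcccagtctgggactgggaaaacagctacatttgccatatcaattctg
Eef1g: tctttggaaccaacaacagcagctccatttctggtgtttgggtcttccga
Eif1: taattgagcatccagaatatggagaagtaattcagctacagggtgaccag
The Eef1a1 window (chr9:78327719-78327768, minus strand) was found at 8 places, of which 2 are annotated pseudogenes and 5 have no annotated gene. The Eif4a1 window (chr11:69483707-69483756, minus strand) was found at 5 places, and the 4 others are annotated pseudogenes. The Eef1g window (chr19:9052129-9052178, plus strand) was also found at 5 places, and the 4 others lie outside annotated genes. The Eif1 window (chr11:100182284-100182333, plus strand) was found at 14 places, of which 7 are annotated pseudogenes, 4 lie inside other genes and 2 outside any gene. All coordinates are those of NCBIM37, and each window is coding sequence.

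**Figure D1:**
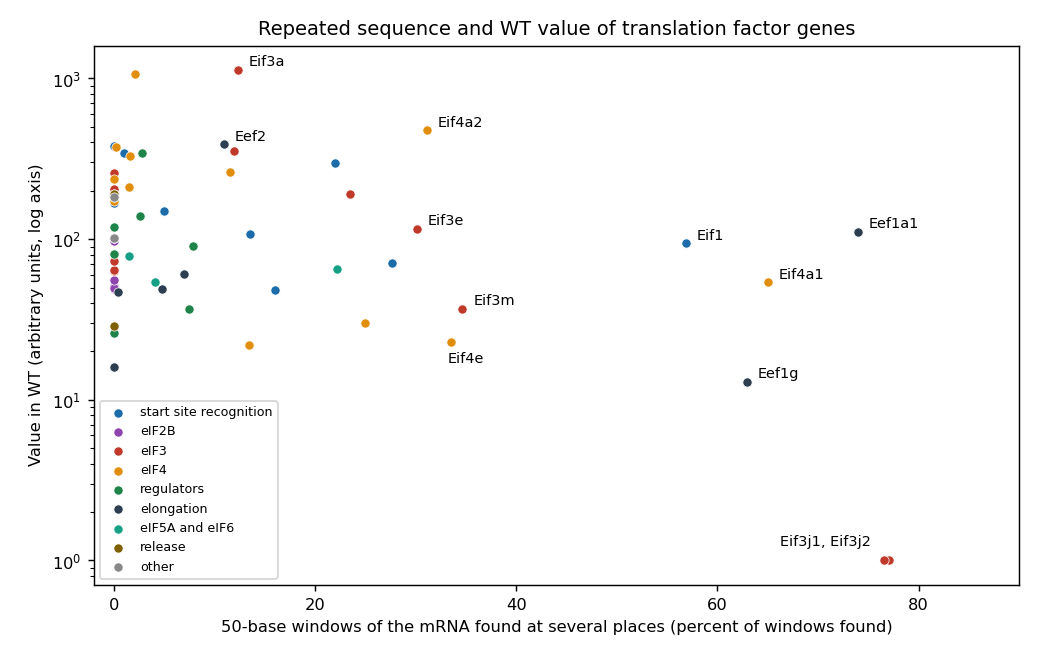
Each point is 1 of the 64 translation factor genes, with the percentage of its found 50-base mRNA windows that occur at several places on the x axis and its value in WT on a logarithmic y axis. The 6 genes above 50% read between 1 and 111 in WT, whereas Eif3a and Eif4g2 stood at 12.3% and 2.12% and read 1129 and 1066.

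As deposited, most translation factor genes were lower in Cxxc1-deficient cells. Of 64 genes, 53 were lower and 11 higher, against 59.9% of all 20125 genes above 0 that were lower. The values of all genes summed to 1551994 in the WT library and 981677 in the other, and the direction over the 64 genes depends on the scaling. With the medians of genes averaging 100 or more set equal, 43.8% of the 64 were lower and their median log2 ratio was 0.11. A fall of at least 2-fold was seen in 28 genes (43.8%), against 17.4% of all genes. A rise of that size was seen in 2 genes, Eif3j1 and Eif3j2, against 5.89% of all genes, and both rest on no more than 2 reads in each library. Taken as Cxxc1-deficient over WT, log2 ratios had a median of -0.88 for the 64 genes and of -0.20 for all genes. For the 28 genes past 2-fold the counting interval lay below a ratio of 1, but only for 7 of them did it lie wholly below 0.5. Over the 64 genes it lay below 1 for 37, held 1 for 27 and lay above 1 for none.

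The size of the fall went with the level of the gene, in the translation factor genes as in the rest of the table. Genes whose values average 100 or more over both libraries are called well expressed here. Of the 26 translation factor genes in that range, 18 fell at least 2-fold, against 56.8% of the 2472 well-expressed genes, and the medians were -1.20 and -1.08. Of 19 with a mean of 50 to 100, 6 fell at least 2-fold, against 20.0%, with medians of -0.74 and -0.53. Of 19 with a mean under 50, 4 fell at least 2-fold, against 9.75%, with medians of -0.35 and 0.00. Against genes of like level, 37 of the 64 genes stood below the median of the 200 genes nearest to them in mean. At the low end, 17 translation factor genes in the WT library and 34 in the Cxxc1-deficient one were at or below the level that 95% of olfactory receptor genes did not pass.

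**Figure D2:**
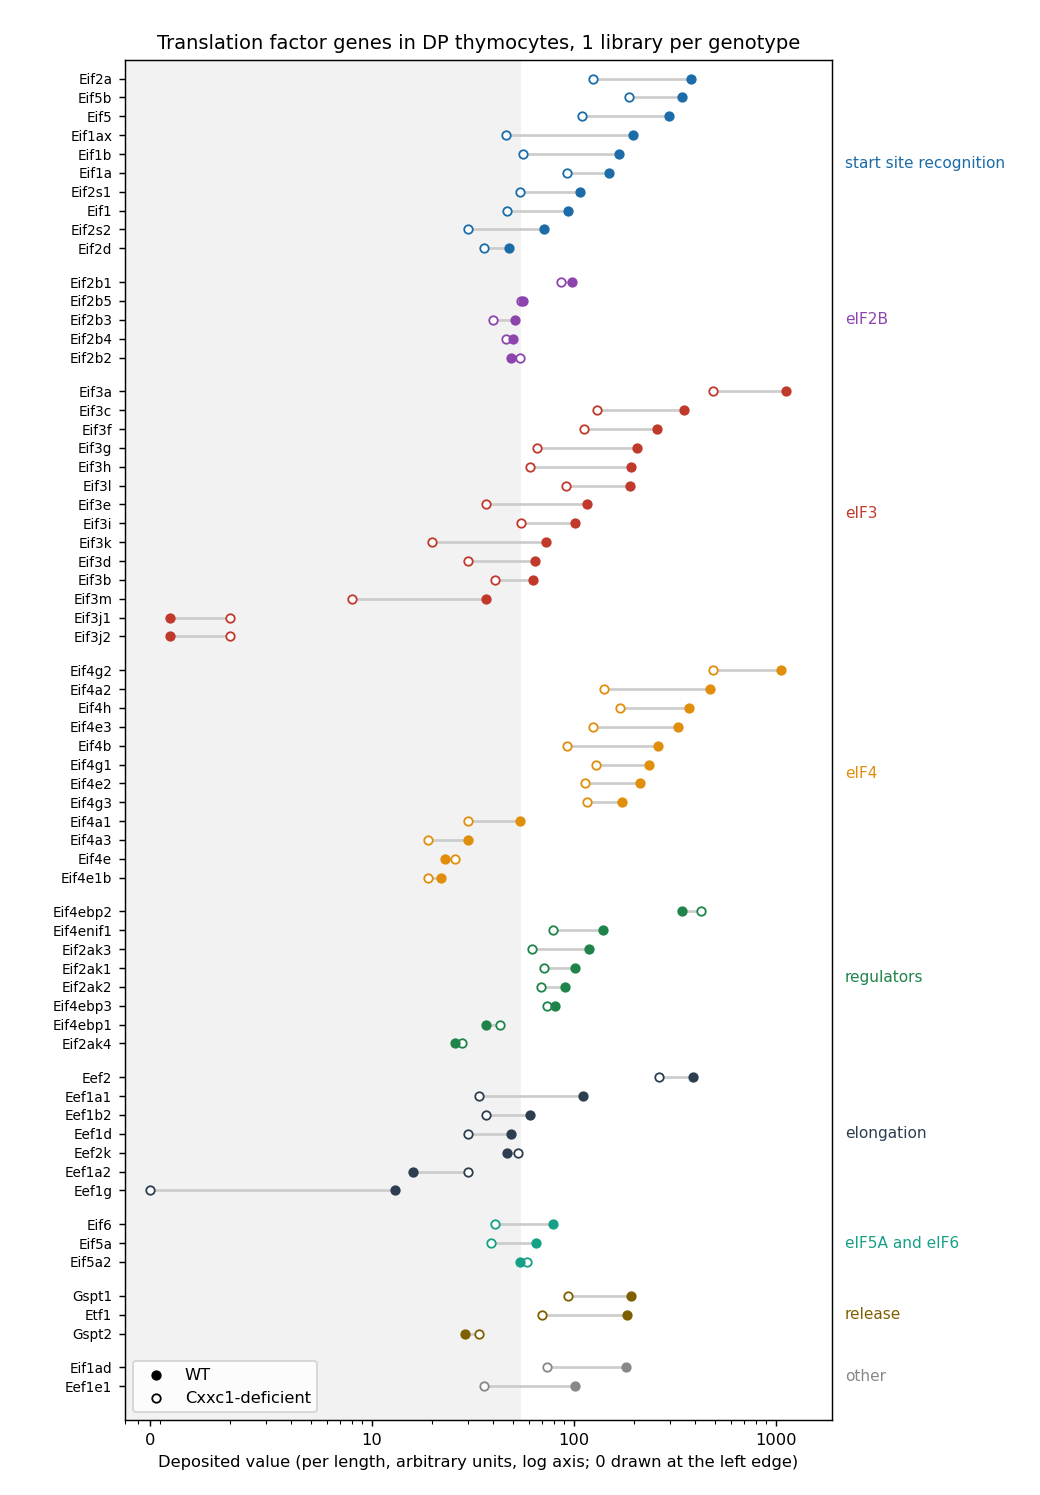
Each row is 1 translation factor gene, with its value in WT (filled) and in Cxxc1-deficient cells (open) on a logarithmic axis, grouped by role; the grey area lies below the 95th percentile of olfactory receptor genes in WT, at 53.95. In the eIF3 and start site groups the open points lie to the left of the filled ones in all rows but Eif3j1 and Eif3j2, and in the eIF2B group the points nearly meet.

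The factors that find the start codon were all lower. Of these 10 genes, 7 fell at least 2-fold, against 17.4% of all genes and 56.8% of well-expressed genes, which 6 of them are. The median log2 ratio was -1.12, beside -0.93 for the genes nearest in mean, and the median gene-by-gene difference from the nearest genes was -0.39. The values of the group summed to 1856 and 784. Eif1ax (chrX:155810110-155827860, plus strand, NCBIM37), which encodes the X-linked form of the scanning factor eIF1A, read 197 in WT cells and 46 without Cxxc1, a 4.28-fold fall (interval 3.13 to 5.85). It had the lowest ratio among the 26 well-expressed translation factor genes. Eif1a, the autosomal gene for eIF1A, read 149 and 93, 1.60-fold lower (interval 1.15 to 2.25). The intervals of this pair did not overlap, and Eif1ax went from 1.32 times to 0.495 times the level of Eif1a.

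Eif1b, a paralogue of the start codon fidelity factor Eif1, read 168 and 56 (ratio interval 0.155 to 0.670), and Eif1 read 94 and 47 on approximately 31 and 13 reads. Eif2a encodes an alternative carrier of initiator tRNA, and it fell from 381 to 125, 3.05-fold (2.29 to 4.13). Eif5, whose product triggers GTP hydrolysis by eIF2, fell from 297 to 110, 2.70-fold (2.12 to 3.43). Eif5b, whose product joins the ribosomal subunits, read 343 and 187, 1.83-fold lower (1.60 to 2.10), and its interval did not overlap that of Eif5. The eIF2 subunit genes Eif2s1 and Eif2s2, named after their values were seen, read 108 and 71 in WT and 54 and 30 in Cxxc1-deficient cells. They were thus within the pattern of the group, on 91 and 39 reads for Eif2s1 and 45 and 16 for Eif2s2. With the libraries scaled to equal medians of well-expressed genes, the group's median was -0.12, and Eif1a and Eif5b turned positive.

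eIF2B is the exchange factor that reloads eIF2 with GTP, and its kinase-controlled activity sets the rate of initiation under stress. None of its 5 subunit genes Eif2b1 to Eif2b5 passed 2-fold in either direction. They read 49 to 98 in the WT library and 40 to 87 in the other, 4 were lower and 1 higher, with a median log2 ratio of -0.12. Their values summed to 304 and 282, and every counting interval held 1. The 200 genes nearest to each in mean had a median of -0.26 over the 5 genes, and the median gene-by-gene difference from them was 0.37. Read numbers of 19 to 49 in WT and 18 to 37 in Cxxc1-deficient cells limited what could be seen. Most of these values also lay near the level of unused genes, since 95% of olfactory receptor genes did not pass 53.95 in WT and 57 in the other library. Eif2b2, Eif2b3 and Eif2b4 were below that level in WT, as were all but Eif2b1 in Cxxc1-deficient cells. The sign of this group's median turned positive when the libraries were set to the same 75th percentile (0.27), to the same sum without the 100 highest genes (0.44) or to equal medians of well-expressed genes (0.88).

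The eIF3 complex, the scaffold of the initiation complex on the small subunit, was lower in nearly every gene. Of 14 genes, 12 were lower and 10 fell at least 2-fold, against 17.4% of all genes and 56.8% of well-expressed genes, which 6 of them are. The median log2 ratio was -1.20, beside -0.59 for the genes nearest in mean, and without Eif3j1 and Eif3j2 these were -1.32 and -0.80. Taken gene by gene, the median difference from the nearest genes was smaller, -0.37 over the group and -0.51 without that pair. Eif3a (chr19:60837019-60866596, minus strand, NCBIM37), the largest subunit, read 1129 in WT cells and 491 in Cxxc1-deficient cells and fell 2.30-fold (2.08 to 2.54) on approximately 1441 and 540 reads. It had the highest WT value of all 64 genes. Against genes of like level it fell less, with a log2 ratio of -1.20 beside -1.59 for those nearest in mean. Eif3c, which with Eif3a forms the core of the complex, fell from 353 to 131, 2.69-fold (2.10 to 3.52). Eif3f went from 258 to 112 (1.70 to 3.15) and Eif3l from 191 to 92 (1.40 to 3.13). Eif3g, an RNA-binding subunit that takes part in scanning, went from 205 to 66 (1.73 to 5.92), and Eif3h from 192 to 61 (1.81 to 5.92). The 6 intervals of these genes overlapped each other, so no order among their ratios could be read.

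The eIF3 subunits differed more in level than in ratio. Eif3a stood 3.20 times above Eif3c in WT and 3.75 times in Cxxc1-deficient cells, and 5.91 and 5.34 times above Eif3l. The other 6 genes that were lower read 37 to 116 in WT and 8 to 55 in Cxxc1-deficient cells. Eif3m, named after its values were seen, had the lowest of these values and rests on approximately 12 and 2 reads. Eif3j1 and Eif3j2, near-identical copies of the loosely bound subunit gene, read 1 in WT and 2 in Cxxc1-deficient cells. Their level could not be measured here, with 3 in 4 or more of their windows at several places. The median of the group stayed below 0 under every scaling tried and was -0.21 with the medians of well-expressed genes set equal, where it was -0.09 over all well-expressed genes and 0.80 over the whole table.

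After the values were seen, the promoters of the translation factor genes were searched for the ETS-factor core CCGGAAG on both strands. RefSeq windows of 300 bases, 250 before and 50 after the start on GRCm38.p6, were held for 48 of the 64 translation factor genes. The motif was in 21 of their 63 windows (33.3%), against 8.86% of all 32851 windows and 19.5% of the windows of well-expressed genes. Windows of 1 gene can overlap and share a site. By gene the motif was held by 18 of 48, against 2683 of all 27025 genes with a window and 458 of 1917 well-expressed ones. Of 10 eIF3 windows, 5 held it. By gene the share was alike in groups with no gene past 2-fold, with 2 of 4 eIF2B genes and 3 of 6 regulator genes. It was lower in the start site group, at 2 of 9 genes, and in the eIF4 group, at 1 of 9. The eIF4 gene is Eif4e2, with 1 site that lies in several overlapping windows. The 5 eIF3 windows are shown with 15 bases on either side of the first match. The capitals mark the motif in the direction of the gene, as CCGGAAG or its reverse complement CTTCCGG.
Eif3c: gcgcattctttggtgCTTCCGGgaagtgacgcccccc
Eif3d: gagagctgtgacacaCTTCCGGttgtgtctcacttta
Eif3g: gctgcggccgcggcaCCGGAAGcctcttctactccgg
Eif3l: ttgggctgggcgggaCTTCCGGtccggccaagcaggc
Eif3m: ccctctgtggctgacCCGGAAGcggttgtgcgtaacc
They lie at chr7:126566413-126566449, chr15:77970873-77970909, chr9:20898613-20898649, chr15:79075173-79075209 and chr2:105017061-105017097, the Eif3l one on the plus strand and the others on the minus strand. The 18 translation factor genes with a match in a window had a median log2 ratio of -0.96 and 9 fell at least 2-fold. The 30 without one had a median of -0.87 and 13 fell, against 17.4% of all genes. A match is a description of the letters only. A start in C followed by 4 or more pyrimidines, the terminal oligopyrimidine form known from mRNAs of the translation machinery, was read in 1 of 63 windows (1.59%), that of Eif3f, against 2.51% of all windows. The run was read only from the exact base of the RefSeq start, so a start listed a few bases off would be missed. The search therefore cannot tell which of these mRNAs have such a start.

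The eIF4 genes were lower in 11 of 12 cases, and 5 fell at least 2-fold, against 17.4% of all genes and 56.8% of well-expressed genes, which 8 of them are. The median log2 ratio was -0.88, beside -1.07 for the genes nearest in mean, with 6 of the 12 below and 6 above the median of their nearest genes. The median gene-by-gene difference was -0.006. Eif4g2, whose product is a scaffold that does not bind eIF4E, read 1066 and 492 and fell 2.17-fold (1.99 to 2.35). Its log2 ratio was -1.12, beside -1.59 for the genes nearest in mean. Eif4g1, the main scaffold of the cap-binding complex, read 236 and 129, 1.83-fold lower (ratio interval 0.450 to 0.666). Eif4g3, the third scaffold, read 173 and 116, 1.49-fold lower (1.25 to 1.78). The intervals of Eif4g2 and Eif4g3 did not overlap, whereas that of Eif4g1 overlapped both. By value Eif4g2 was the most abundant of the scaffolds in both libraries, at 4.52 and 3.81 times the level of Eif4g1.

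Of the helicase genes, Eif4a2 fell from 475 to 141, 3.37-fold (2.64 to 4.36). Its paralogue Eif4a1 read 54 and 30, on approximately 25 and 12 reads and with 65.0% of its windows at several places, so the ratio between them, 8.80 in the WT library and 4.70 in the other, cannot be read as their relative abundance. Eif4b and Eif4h, cofactors of the helicase, fell from 261 to 93 (2.17 to 3.69) and from 372 to 170 (1.69 to 2.82). Among the cap-binding genes, Eif4e, the classical one, read 23 and 26, within the range of olfactory receptor genes, with 33.5% of its windows at several places. Eif4e3, a weak cap binder, fell from 329 to 125, 2.63-fold (1.98 to 3.51). Eif4e2, whose product binds the cap but not the scaffold, read 212 and 114, 1.86-fold lower (1.43 to 2.45). The median of the eIF4 group turned positive (0.11) with the medians of well-expressed genes set equal, as did Eif4g1, Eif4g3, Eif4e2 and Eif4a1.

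**Figure D3:**
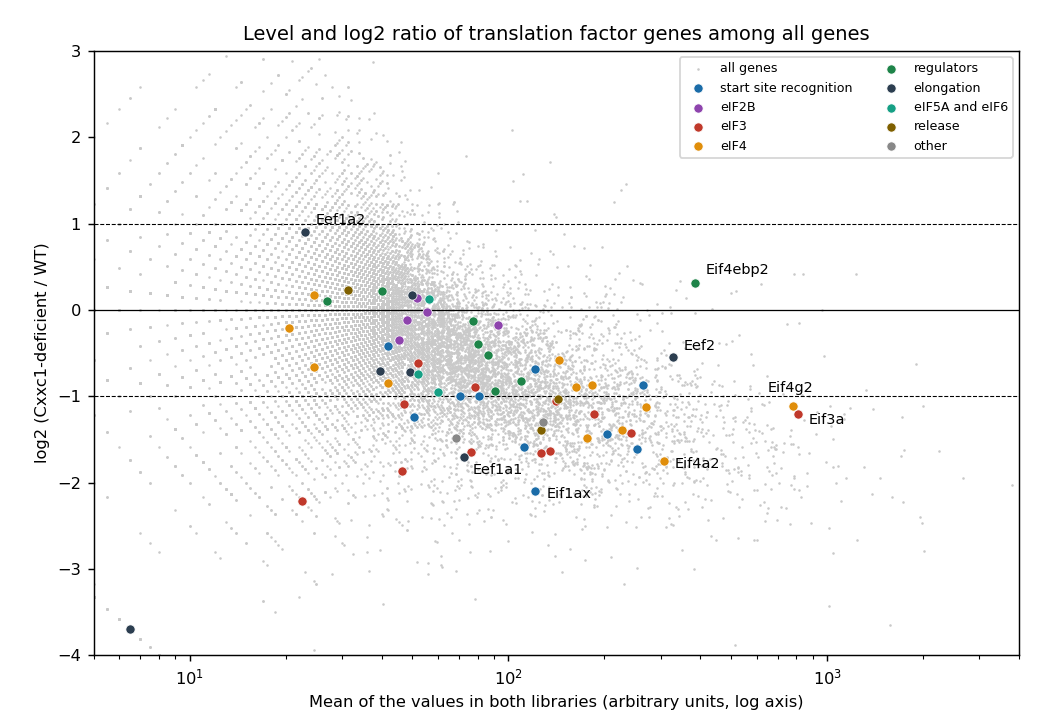
Grey points are all genes with a mean of at least 5, and coloured points are translation factor genes by role, with the mean value of both libraries on a logarithmic x axis and the log2 ratio of Cxxc1-deficient to WT on the y axis, drawn from -4 to 3; Eif3j1 and Eif3j2 lie below a mean of 5. The ratios of all genes slope downward with level, most coloured points lie in that slope, and Eif4ebp2 (0.32) and Eef2 (-0.55) lie above it.

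The repressor gene Eif4ebp2 was the only well-expressed translation factor gene that was not lower. It lies at chr10:60895245-60915417 on the minus strand of NCBIM37 and encodes a protein that binds eIF4E in place of the eIF4G scaffold and is released when mTORC1 phosphorylates it. It read 343 in the WT library and 427 in the Cxxc1-deficient one, a log2 ratio of 0.32 on approximately 151 and 162 reads. The interval of the ratio, 0.991 to 1.56, held 1 but lay above those of the 25 other translation factor genes in this range, whose upper ends reached no more than 0.869. The 200 genes nearest to it in mean had a median of -1.39, and 116 of the 2472 well-expressed genes were higher. Its log2 ratio was 0.70, 0.88 and 1.31 under the scalings to the 75th percentile, to the sum without the 100 highest genes and to the median of well-expressed genes. It was then not alone in being higher, since Eef2 turned positive under the second and 7 others, Eef2 among them, under the third. Its rank by value in the table went from 579 to 58. Relative to Eif4g1 its level went from 1.45 to 3.31, relative to Eif4e2 from 1.62 to 3.75 and relative to Eif4a2 from 0.722 to 3.03.

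Of the 8 regulator genes, Eif4ebp2 included, none passed 2-fold and 5 were lower, with a median log2 ratio of -0.26 beside -0.69 for the genes nearest in mean. The median gene-by-gene difference from those nearest genes was 0.22. Eif4ebp1 read 37 and 43 and Eif4ebp3 read 81 and 74, on 9 to 15 reads each, and with Eif4ebp2 the binding protein genes had sums of 461 and 544. Eif4enif1, whose product carries eIF4E into the nucleus, read 140 and 79, 1.77-fold lower (1.30 to 2.45). The eIF2alpha kinase genes had a median of -0.46. Eif2ak3, the kinase of endoplasmic reticulum stress, read 119 and 62 (ratio interval 0.375 to 0.710), and Eif2ak1, the heme-regulated kinase, read 102 and 71 (0.501 to 0.949). Eif2ak2, activated by double-stranded RNA, read 91 and 69, and Eif2ak4, activated by amino acid shortage, read 26 and 28, and both intervals held 1. The regulators' median was positive under the scalings to the 75th percentile (0.12), to the sum without the 100 highest genes (0.30) and to the median of well-expressed genes (0.73).

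Cxxc1 protein binds CpG, and the promoters of the genes with the highest and the lowest ratio among the well-expressed ones are therefore shown side by side. They are the 250 bases before the RefSeq start on GRCm38.p6, in the direction of the gene, and the capitals mark each CG.
Eif4ebp2: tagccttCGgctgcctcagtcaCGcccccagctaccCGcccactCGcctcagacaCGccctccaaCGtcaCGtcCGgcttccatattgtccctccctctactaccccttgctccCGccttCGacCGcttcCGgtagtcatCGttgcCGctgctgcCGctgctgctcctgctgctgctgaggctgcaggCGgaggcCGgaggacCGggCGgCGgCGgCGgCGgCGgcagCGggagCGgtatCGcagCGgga
Eif1ax: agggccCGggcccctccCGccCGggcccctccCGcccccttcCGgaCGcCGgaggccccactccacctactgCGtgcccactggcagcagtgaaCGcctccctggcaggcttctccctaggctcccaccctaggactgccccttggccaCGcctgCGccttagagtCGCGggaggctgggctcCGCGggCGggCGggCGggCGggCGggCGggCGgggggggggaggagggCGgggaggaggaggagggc
The Eif4ebp2 stretch (chr10:61452670-61452919, minus strand) held 28 CG and the Eif1ax stretch (chrX:159371928-159372177, plus strand) held 23. The whole 300-base windows held 34 and 31, and both held CCGGAAG on one of the strands. The translation factor windows had a median of 24 CG, against 7 over all windows, 14 over those of genes in the table above 0 and 23 over those of well-expressed genes. Both stretches are dense in CG. They were picked for their ratios, and whether CG content goes with the ratio over the translation factor genes was not tested. The paper reports that only a small part of the Cxxc1-binding sites in DP cells lay at CpG islands. It also reports that binding signal was enriched at island centres and around transcription start sites. Binding of Cxxc1 at these promoters was not looked at here.

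Of the elongation genes, Eef2, whose product moves the ribosome along the mRNA, read 389 and 266, 1.46-fold lower (1.21 to 1.77). Its interval did not overlap that of Eif3a or Eif4a2, and its level went from 0.345 to 0.542 times that of Eif3a. The 200 genes nearest to Eef2 in mean had a median log2 ratio of -1.32, against -0.55 for Eef2. It changed sign to 0.01 with the libraries set to the same sum without the 100 highest genes, and to 0.45 with the medians of well-expressed genes set equal.

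Eef1a1, which encodes the usual carrier of aminoacyl-tRNA and is among the most abundant mRNAs of most cells, read 111 and 34 on approximately 49 and 13 reads. By value it ranked 2892 and 11068 in the table, and only 24.6% of its windows occur once in the genome, as in the repeated window shown above. Eef1a2, the form of muscle and neurons, read 16 and 30, within the range of olfactory receptor genes. Eef1g, a subunit of the exchange factor for eEF1A, read 13 in WT, below the olfactory receptor median of 22, and was listed at 0 in Cxxc1-deficient cells. Its fall is 1.72-fold if 3 reads are taken as the least that can be told from 0 in that library. That figure leaves out the counting error of approximately 6 reads in WT, and the counting interval of the fall starts at 1.02-fold. With Eef1g set to a 1.72-fold fall, 27 translation factor genes fell at least 2-fold and the median over 64 genes was -0.87. The 7 elongation genes, with the eEF2 kinase gene Eef2k among them, had a median of -0.71 and 5 were lower. That median was 0.29 with the medians of well-expressed genes set equal.

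Eif5a, whose product carries the hypusine residue and relieves stalled ribosomes, read 65 and 39, and its paralogue Eif5a2 read 54 and 59. Both intervals held 1, as did that of Eif6, and the group's median turned from -0.74 to 0.26 under that last scaling. The release factor gene Etf1 fell from 183 to 70, 2.61-fold (1.92 to 3.62), and its partner Gspt1 from 192 to 94, 2.04-fold (1.67 to 2.52). Gspt2, the second eRF3 gene, read 29 and 34 on 18 reads in each library. The pair that ends translation was thus at a like level, with Gspt1 at 1.05 times Etf1 in WT and 1.34 times in Cxxc1-deficient cells, and their intervals overlapped. Eif1ad, a gene with an eIF1A domain, fell from 182 to 74, 2.46-fold (1.69 to 3.63).

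**Figure D4:**
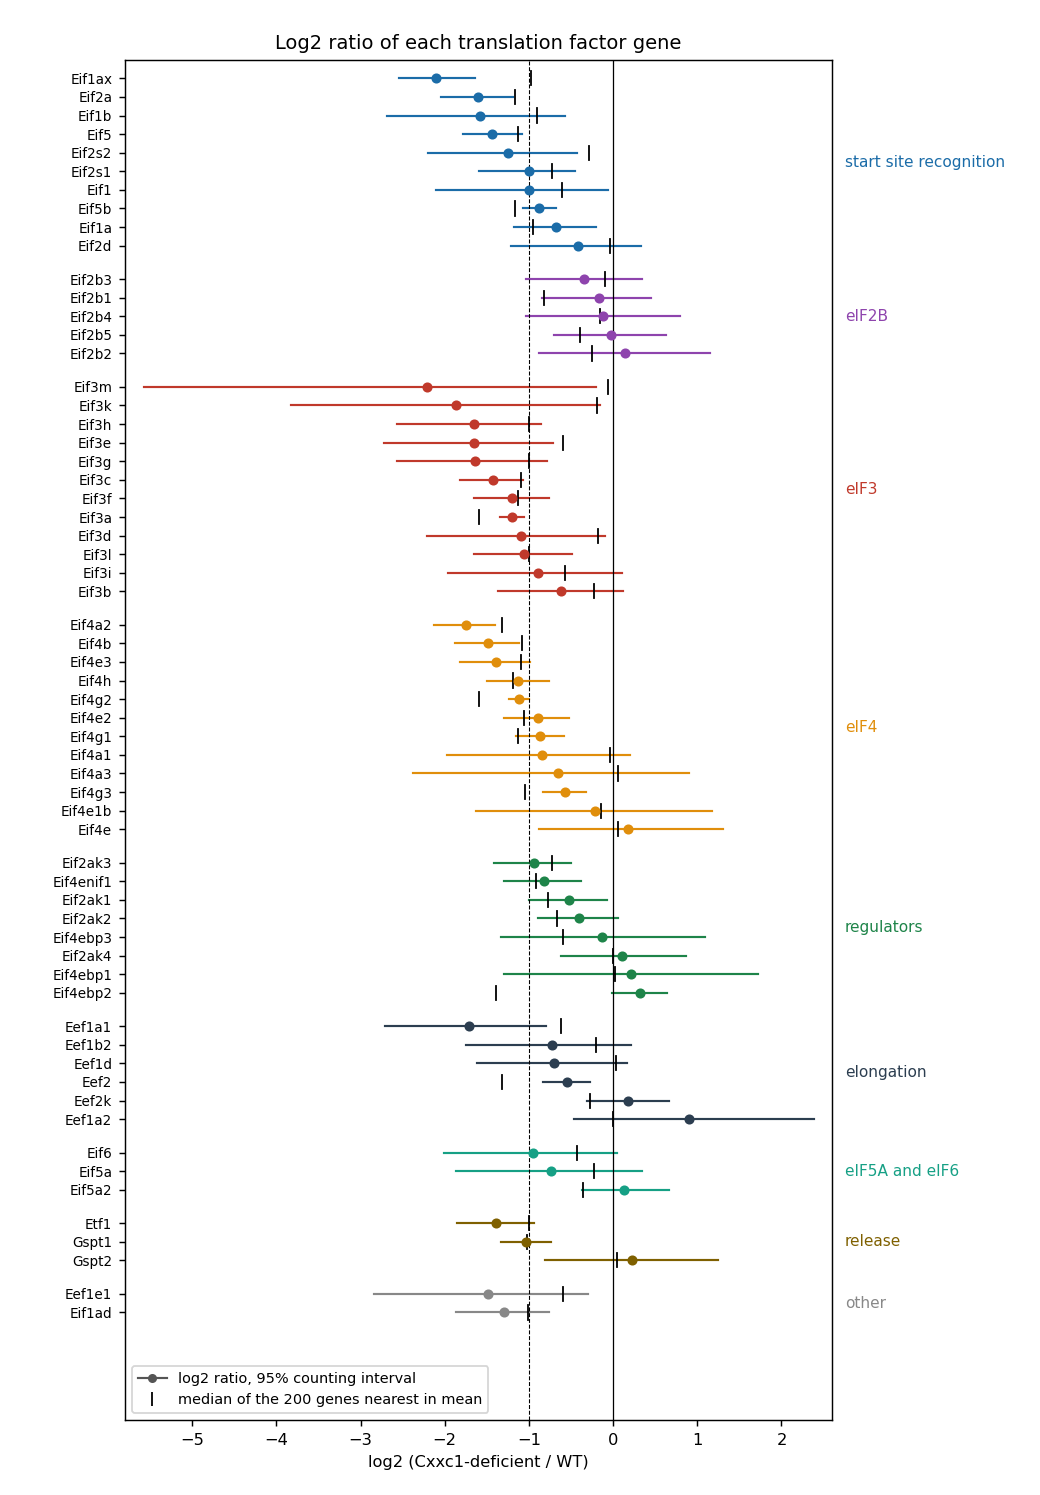
Points are log2 ratios of Cxxc1-deficient to WT for 61 translation factor genes, lines are 95% counting intervals from approximate reads, and black ticks are the median of the 200 genes nearest in mean; the dashed line marks a 2-fold fall, and Eif3j1, Eif3j2 and Eef1g are left out for having too few reads. The interval of Eif4ebp2 lies to the right of its tick by the widest gap, and those of Eef2, Eif3a and Eif4g2 are among the others to the right. Those of Eif1ax and Eif4a2 are among several that lie to the left of theirs.

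Repeated sequence went with both a lower value and a lower ratio. The 15 translation factor genes with at least 20% of windows at several places had a median WT value of 65, and the 49 with less had one of 108. The former had a median log2 ratio of -1.24 and 9 fell at least 2-fold, and the latter had a median of -0.87 and 19 fell, against 17.4% of all genes. The same was seen in all genes averaging 50 to 100, with medians of -1.11 for 96 genes and -0.53 for 3427. For well-expressed genes they were -1.43 for 47 genes and -1.08 for 2380. The part of repeated sequence in the ratios was not tested. Eif4ebp2 and Eif1ax had 2.86% and 0% of such windows.

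Other genes of translation were described from a list of 55 genes outside the naming rule. Of these, 38 were lower, 16 higher and 1 equal, with a median log2 ratio of -0.49, and 14 fell and 1 rose at least 2-fold, against 17.4% and 5.89% of all genes. Of the 11 well-expressed ones, 7 fell at least 2-fold, against 56.8% of all genes in that range, and the medians were -1.45 and -1.08. Pdcd4, an inhibitor of the eIF4A helicase, had the highest mean of the list and fell from 1186 to 243. Paip2, which keeps poly(A)-binding protein off the tail, fell from 675 to 221, and Pabpc1, the cytoplasmic poly(A)-binding protein, read 529 and 267. Rps6kb1, the S6 kinase downstream of mTORC1, read 347 and 179, and Cdc123, an assembly factor of eIF2, fell from 235 to 81. Pdcd4 and Paip2, both restraints on initiation, were thus lower, unlike Eif4ebp2. The gene that rose past 2-fold, Tufm, a mitochondrial elongation factor, read 2 and 5. The mitochondrial group of 9 genes had a median of -0.10 and the eEF2 diphthamide group of 6 a median of 0.11, both at low values, between 2 and 137 in WT.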

How the data were processed

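Total RNA of DP thymocytes was extracted with TRIzol, poly(A) mRNA libraries were made with a NEBNext kit, and reads were sequenced on an Illumina HiSeq. Per the labels, the authors used CASAVA 1.8.2, Bowtie 1.0.1 and Partek with mm9, and their methods keep uniquely mapped reads. The deposited values are a score per gene and library, in whole numbers. The gene annotation and the unit are not given in the sources used here. Samples were grouped by title, 1 per genotype.

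From the deposited scores, a value was matched to whole reads divided by mRNA length, over genes with 1 annotated length in GENCODE vM1. In WT 77.0% of 4084 genes fell on a whole read, against 32.6% by spacing alone, and in Cxxc1-deficient cells 75.7% of 4033, against 28.2%. Reads are approximate, since the longest coding transcript was assumed. Values were raised to at least 1 before a ratio, and 2-fold was the threshold. No test was run. The ratio script was tested on simulated data. Named genes are those with a mean of at least 100, those at least 2-fold higher, those at 0 and the paralogue sets, and of the pathway list the 5 highest and any 2-fold higher. The genes and lists were chosen with earlier results of these data known. Eif3j1 and Eif3j2 were matched to the annotation through RefSeq synonyms. Windows were matched exactly, which allows no mismatch as an aligner does. Python 3.11.15, numpy 2.4.6, pandas 2.3.3 and scipy 1.17.1 were used. Promoter windows were those of RefSeq; 16 genes have none here: Eef1d, Eef1g, Eif1a, Eif2b3, Eif3e, Eif3h, Eif3i, Eif3j2, Eif4e1b, Eif4e3, Eif4ebp1, Eif4ebp3, Eif4g2, Eif6, Etf1 and Gspt2. Alternatives were other scalings, pseudocounts, thresholds and subsets of the genes.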

Additional observations from a re-analysis of the deposited data

How the results depend on the processing

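With 1 library per genotype no replicate error was available, and genes with few reads or repeated sequence were read least well. No paired analysis was possible because there is a single library of each genotype. Setting both libraries to the same median left the medians within counting error. The genes at least 2-fold lower then numbered 25 instead of 28 (15.97% of all genes), and those at least 2-fold higher stayed at 2. Other scalings moved the log2 ratio of genes above 0 in both libraries by 0.39 (same 75th percentile), 0.56 (same sum without the 100 highest genes) and 1.00 (same median of well-expressed genes). In that order, the genes at least 2-fold lower numbered 16, 11 and 3 (8.86%, 6.54% and 3.51% of all genes), and the medians were -0.50, -0.32 and 0.11 over the 64 genes and -0.82, -0.64 and -0.21 over the well-expressed ones. The share of genes lower was 67.2% under the second and 43.8% under the third, where 11 genes were at least 2-fold higher (37.2% of all genes) and 4 of the 9 role groups had a median below 0. Thus the direction over the 64 genes turned under the third. With the olfactory receptor median subtracted the medians were -1.28 and -1.37. A pseudocount of 1 or 10 left 0 genes 2-fold higher, and 10 gave a median of -0.81. The 54 genes above the median level gave 0 higher, 90.7% lower and a median of -0.94, and the 53 core factors a median of -0.95. The 29 genes with at least 80% of windows found once had 11 genes 2-fold lower and 0 higher, where 17.4% of all genes were 2-fold lower and 5.89% higher. In a split added after seeing the data, 42 genes with under 10% of windows at several places had 15 lower and 0 higher, and the 22 others had 13 lower and a median of -1.10. A threshold of 3-fold gave 11 lower and 0 higher. Of the values for single genes and role groups, 241 stayed within counting error and 109 moved beyond it.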
